A study of Arabidopsis thaliana with 60 samples.

Results

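WRKY transcription factors are a plant protein family named for the amino acids of their DNA-binding domain. They bind W-box elements in promoters, and many are known as regulators of the immune response to microbes, of salicylic acid signalling, of leaf senescence and of responses to drought, heat or phosphate shortage, while a few act in seed, pollen, root or shoot development. Many WRKY genes are kept low in healthy plants and rise within minutes of a stress signal. The genes described here are the nuclear protein-coding genes whose symbol in the RefSeq gene table begins with WRKY and a number, 67 of 27444 protein-coding genes. Another 5 genes carry a WRKY name only as a synonym (ABO3, ZAP1, TTG2, TTR1 and RRS1) and are not among the 67.

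The values are ChIP-seq peak lists from whole seedlings of Arabidopsis thaliana grown for 8 days. H3K27me3 is the repressive histone mark set by Polycomb repressive complex 2 (PRC2), whose catalytic subunits include CLF and SWN, and removed by demethylases such as REF6. K4 trimethylation is found near the start of transcribed genes; the labels' antibody field names histone H4 for these libraries, so the histone is left out here. ULTRAPETALA1 (ULT1) carries a SAND domain and is known as a factor with trithorax and Polycomb functions.

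The single-end series profiled both marks with 2 libraries per genotype. In the Landsberg erecta (Ler) background it held 35S::ULT1, in which the cauliflower mosaic virus 35S promoter drives ULT1, the loss-of-function alleles ult1-2 and ult1-3, and the Ler wild type. In the Columbia (Col-0) background it held the REF6 loss-of-function mutant ref6-3 and the Col-0 wild type. The paired-end series profiled H3K27me3 alone in the Col-0 background, in 2 double mutants that carry ult1-3 with clf-28 or with swn-7, the single mutants clf-28, swn-7 and ult1-3, and Col-0, and its 2 libraries per genotype stand in 1 deposited list. Per the labels' protocol, each single-end library joined technical ChIP reactions from a single nuclear extract. The labels do not say whether the libraries of a genotype came from separate plants, so p-values concern these libraries only. The spread behind them was floored and shrunk toward that of other genes. At genes with equal values in both libraries of each genotype, such as WRKY41 and WRKY67 for H3K27me3, it came from these steps alone. Single-end lists held 6379 to 9945 H3K27me3 peaks with 8.79 to 22.4 megareads in peaks, and 15527 to 16510 K4 peaks with 16.5 to 22.5 megareads. Paired-end lists held 3703 to 5987 peaks, and their depth is unknown.

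The measure used throughout is cover, the percent of a gene body lying under peaks in 1 list. A gene was called marked by H3K27me3 in a list at a cover of at least 50%. It was called marked by K4 trimethylation at 500 bp or 50% of its body, whichever was less. A genotype was counted as marked where both of its libraries were. Seedlings are mixtures of cell types, and fewer cells with a mark and less of the mark per cell cannot be told apart in these lists.

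H3K27me3 covered most WRKY genes in full or not at all. In 35S::ULT1, 42 of the 67 genes were marked (62.7%, against 30.2% of all protein-coding genes) and in Ler 39 (58.2%, against 25.4%). In ult1-2 37 were marked (55.2%, against 24.1%) and in ult1-3 38 (56.7%, against 24.1%). In ref6-3 42 were marked (62.7%, against 28.1%) and in Col-0 37 (55.2%, against 22.97%). The same 36 genes were marked in each of the 12 single-end lists, 53.7% of the family, where 19.4% of all genes were. In all 18 H3K27me3 lists, paired-end ones included, 27 WRKY genes were marked (40.3%, against 8.81% of all genes). At the other end, 19 WRKY genes (28.4%, against 47.0%) carried no H3K27me3 peak in any of the 18.

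Some of the protein subgroups by which the family is usually ordered were marked almost throughout or not at all, and others were mixed; no test of subgroup against mark was run. Subgroups were taken here from textbook background, not from sequence. All 8 genes of subgroup IIb were marked in both wild types, among them WRKY6, a regulator of senescence and of phosphate and boron responses. In subgroup IIc, which holds several developmental regulators, 17 of 18 genes were marked in Ler and 16 of 18 in Col-0. WRKY50 was the unmarked one in both, with 0% in every list, and WRKY45 was below the limit in 1 Col-0 library. In contrast, none of the 7 genes of subgroup IId, whose proteins bind calmodulin, was marked in either wild type, and their median cover was 0%.

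Subgroup I, whose proteins carry a pair of WRKY domains, had 1 marked gene of 10 in each wild type, WRKY58. Its other members included WRKY33, the regulator of camalexin synthesis and of resistance to necrotrophic fungi, which had 0% in all 18 lists. WRKY2 and WRKY34, which act in pollen, also had 0% in all 18. In subgroup IIa, WRKY40 alone of 3 genes was marked. Subgroup IIe had 5 of 7 genes marked in Ler and 4 of 7 in Col-0, and subgroup III had 6 of 12 in both. The seed size regulator WRKY10, left unplaced here, was fully covered in all 12 single-end lists, and WRKY19, also unplaced, had 0% in all.

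**Figure D1:**
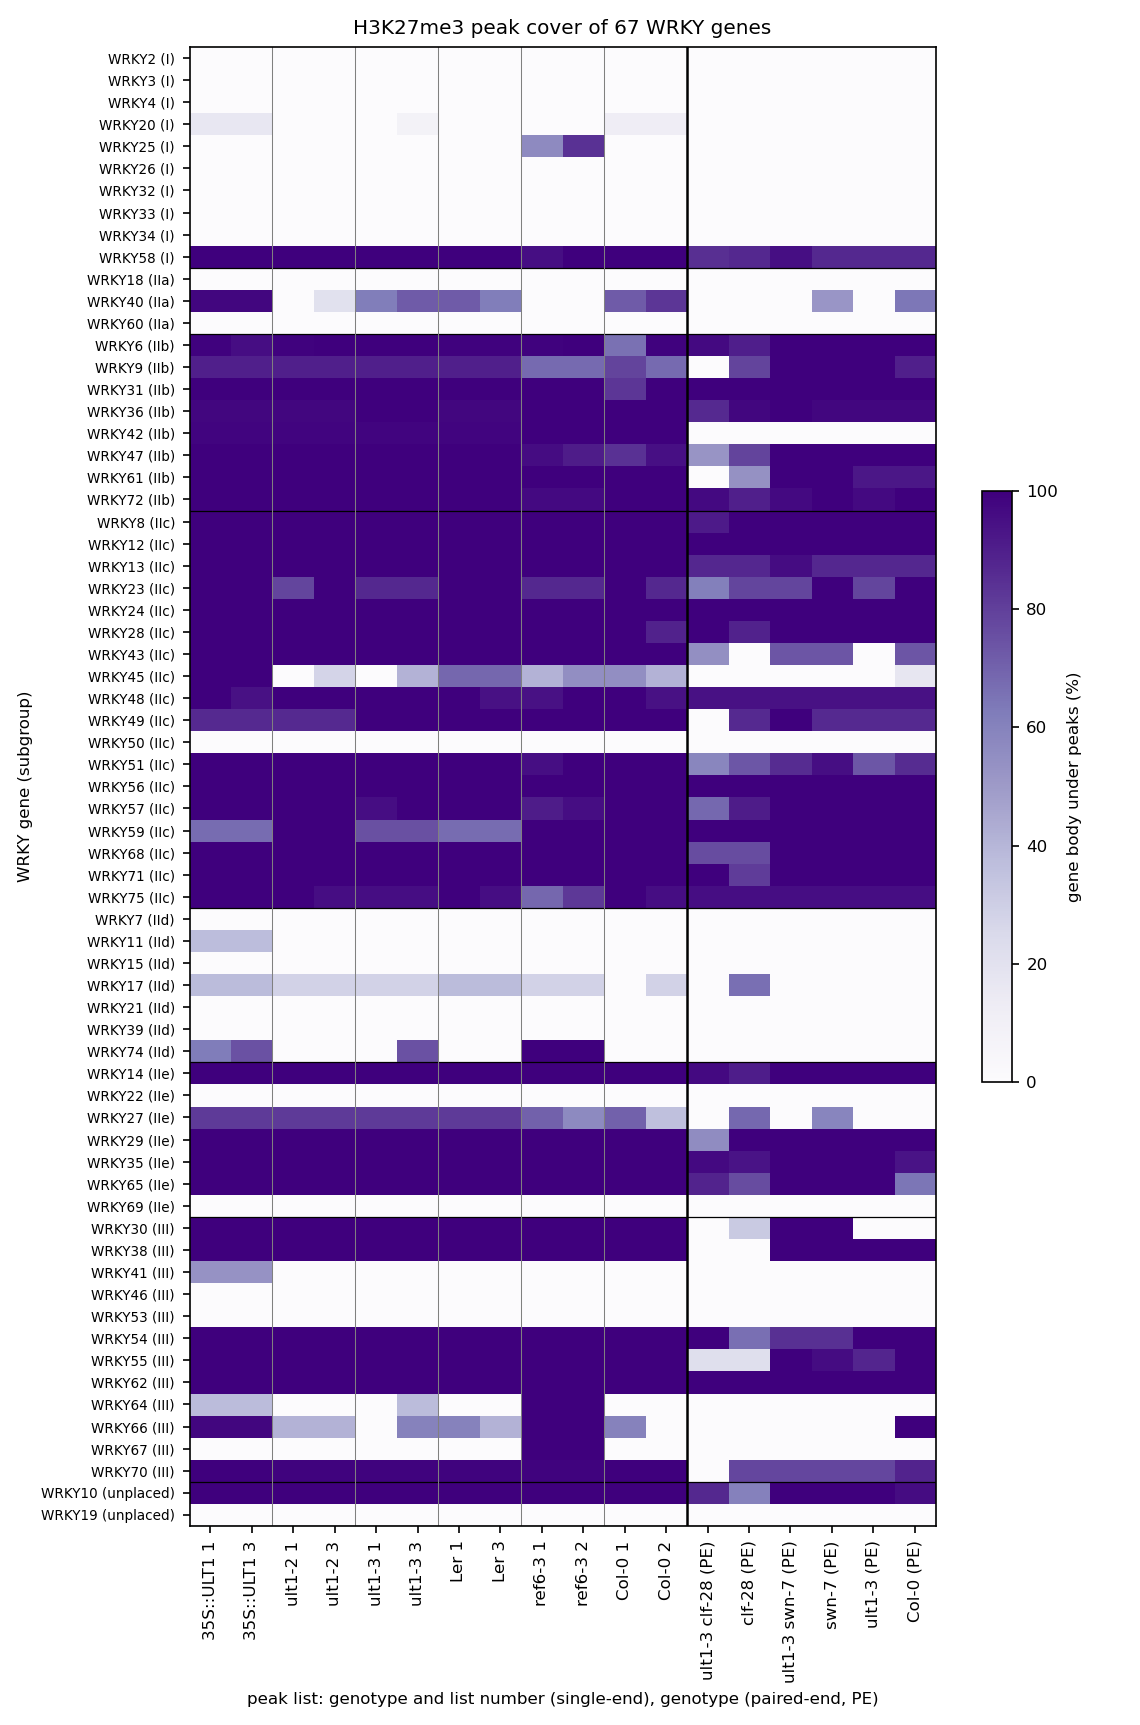
Percent of each of 67 WRKY gene bodies under H3K27me3 peaks (color, 0 to 100) in the 12 single-end lists and, right of the thick line, the 6 paired-end lists (PE), with genes ordered by subgroup. Subgroups IIb and IIc are dark in nearly every single-end list, IId is pale outside 35S::ULT1, ref6-3 and clf-28 apart from partial cover of WRKY17 and 1 ult1-3 list at WRKY74, and WRKY30 and WRKY42 are dark in single-end Col-0 and pale in paired-end Col-0.

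Genes with related roles differed in the mark. Of the 3 repressors of basal defence that form complexes with one another, WRKY18 and WRKY60 had 0% in every H3K27me3 list, while WRKY40 had 72.2% and 61.9% in Ler and 72.2% and 82.5% in Col-0. Among the salicylic acid genes, WRKY38 and WRKY62, negative regulators of basal defence, and WRKY54 had 100% in all 12 single-end lists. WRKY70, which links salicylic acid to jasmonate signalling, had 98.8% to 100%. WRKY46, which acts with WRKY54 and WRKY70, and the senescence factor WRKY53 had 0% in all 18.

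The flagellin-response genes were split in the same way, since WRKY29 had 100% in all 12 single-end lists and WRKY22 had 0%. The senescence and phosphate genes WRKY6 and WRKY75 had 65.8% to 100% and 68.4% to 100% in the single-end lists, while WRKY45, which acts in phosphate uptake, had 0% to 100%. The developmental genes WRKY12, WRKY13 and WRKY71 had 100% in all 12. WRKY28, which acts in the ovule and in salicylic acid synthesis, had 88.9% to 100%, and WRKY23, which acts downstream of auxin in roots and embryos, had 78.3% to 100%.

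Peaks over marked WRKY genes had a larger median width and fold than all peaks of their lists. In Ler libraries 1 and 3 the H3K27me3 peaks over the 40 and 39 marked WRKY genes had median widths of 5200 and 4900 bp. All peaks had 2200 and 2000 bp. The authors' fold over control had medians of 4.65 and 5.05 at these WRKY genes and 3.08 and 3.36 over all peaks. The WRKY peaks were taken at genes with at least 50% cover and all peaks were not, so greater width is partly set by that choice. Peaks over other marked genes were not compared. The neighbours WRKY55 and WRKY54, 919 bp apart with no protein-coding gene between them, were both at 100% in all 12 single-end lists. In Ler, 16 and 15 WRKY genes shared their peak with at least 1 other gene that it covered by 50% or more, so such values are not independent of the neighbouring gene.

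Among other transcription factor families in the same table, H3K27me3 marked 51.9% of the 81 NAC genes in Ler and 50.6% of them in Col-0, and it marked 68.3% of the 120 MYB genes in Ler and 66.7% in Col-0. The WRKY shares of 58.2% and 55.2% lay between these. These differences between families were not tested.

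**Figure D2:**
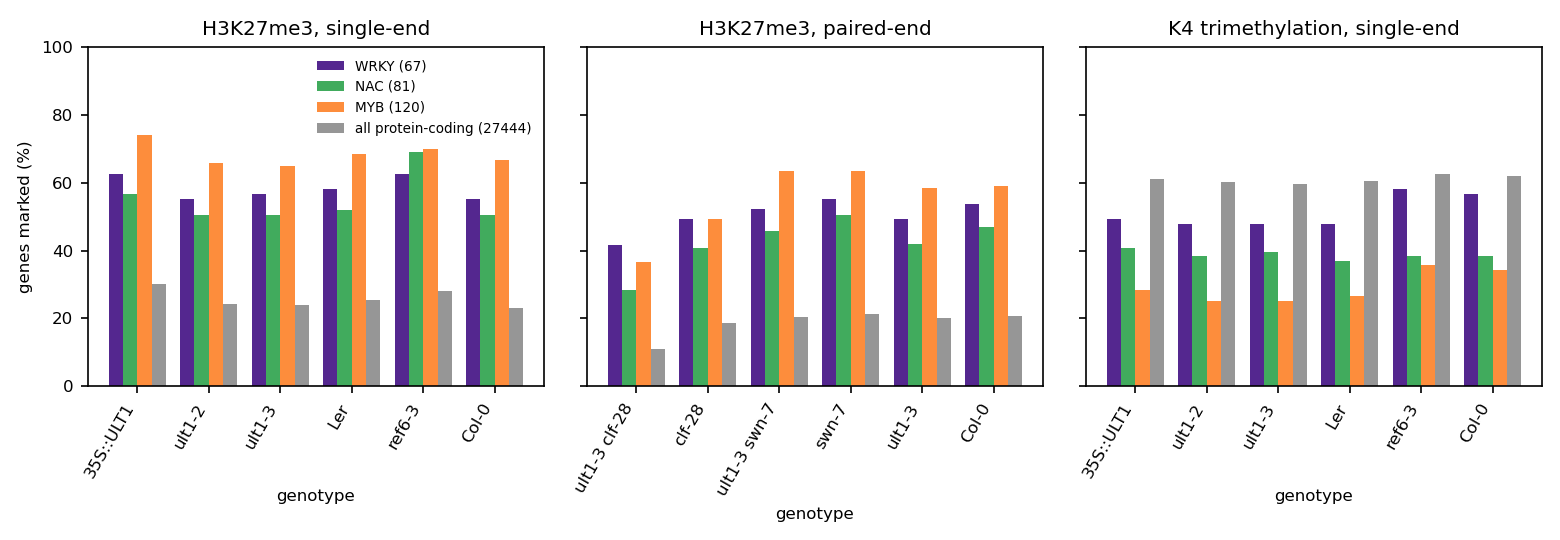
Percent of genes marked per genotype (bars from 0) for WRKY, NAC and MYB genes and all protein-coding genes, for single-end H3K27me3, paired-end H3K27me3 and K4 trimethylation. WRKY bars stand above the bar of all genes in every H3K27me3 genotype, at 62.7% against 30.2% in 35S::ULT1, and below it in every K4 genotype.

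K4 trimethylation marked 33 WRKY genes in 35S::ULT1 (49.3%, against 61.2% of all protein-coding genes) and 32 in Ler (47.8%, against 60.5%). It marked 32 in ult1-2 (47.8%, against 60.3%) and 32 in ult1-3 (47.8%, against 59.7%). In ref6-3 39 were marked (58.2%, against 62.7%) and in Col-0 38 (56.7%, against 62.0%). Of the 67 genes, 32 were K4-marked in all 12 lists and 27 in none, where of all 27444 genes 15766 and 8758 were. In Col-0 the K4 mark covered a median of 41.1% of subgroup I gene bodies and 66.8% of subgroup IId ones, subgroups with little H3K27me3. The median was 0% in subgroup IIc. Other subgroups did not follow that order. Subgroup IIe had a median of 79.6% K4 cover and 100% H3K27me3 cover, and subgroup III had 0% K4 cover with 6 of 12 genes marked by H3K27me3. Subgroups IIa and IIb had median K4 cover of 77.4% and 22.8%. WRKY33 had 93.4% K4 cover in both Ler libraries and 71.1% and 100% in Col-0.

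Several WRKY genes lay under both marks in wild-type seedlings. In Col-0, 15 genes were marked by both, which is 22.4% of the family and 40.5% of its H3K27me3-marked genes. Among all genes the shares were 3.63% and 15.8%. In Ler, 11 genes were marked by both, 16.4% of the family and 28.2% of its H3K27me3-marked genes, against 4.35% and 17.2% among all genes. The genes with both marks in both wild types were WRKY6, WRKY14, WRKY23, WRKY28, WRKY40, WRKY47, WRKY48, WRKY57 and WRKY65.

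WRKY65 had 100% H3K27me3 cover in all 4 wild-type libraries, with K4 cover of 60.5% and 84.6% in Ler and 84.6% and 96.1% in Col-0. Counting instead genes with at least 200 bp under both marks at the same position gave 13 WRKY genes in Ler and 17 in Col-0. In the single-end series, neither mark was called in both libraries of a wild type at WRKY34, WRKY41, WRKY50, WRKY64, WRKY66, WRKY67 and WRKY74. Of these, WRKY66 had 59.96% H3K27me3 cover in 1 library of Ler and 1 of Col-0. Whether both marks lie in one cell cannot be told apart here from marks in different cells.

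**Figure D3:**
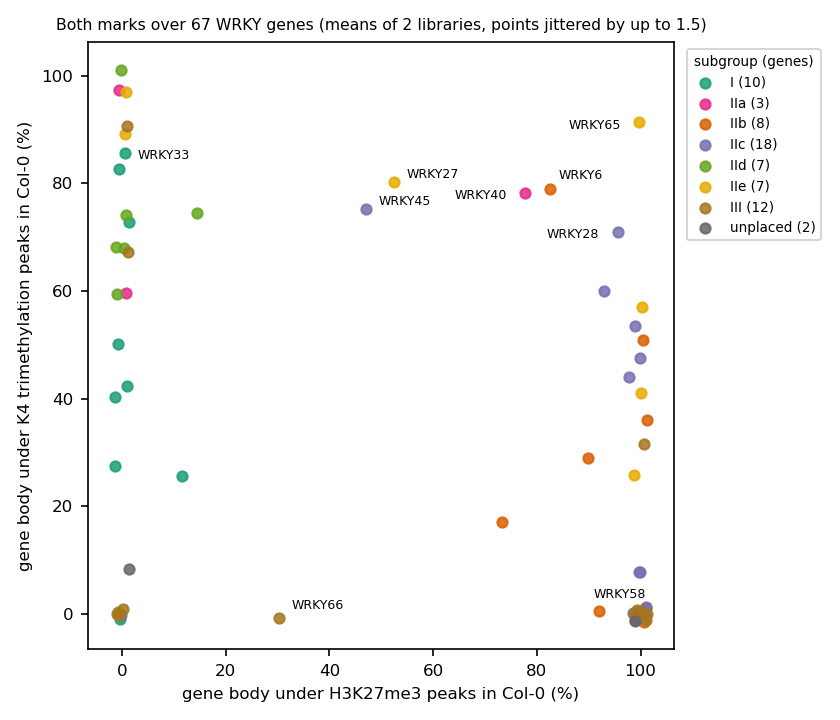
Each point is 1 of 67 WRKY genes, placed by mean H3K27me3 cover (x, percent) and mean K4 trimethylation cover (y, percent) of the 2 Col-0 libraries, colored by subgroup and jittered by up to 1.5 points. Subgroup IId lies at or near the left edge and subgroup IIc mostly at the right edge, with WRKY65, WRKY6, WRKY28 and WRKY40 high on both axes.

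The effect of 35S::ULT1 was tested with limma on cover, with all 8 Ler-family libraries in 1 fit and Benjamini-Hochberg adjustment over all 10798 genes tested, of which 46 were WRKY genes. H3K27me3 was higher in 35S::ULT1 than in Ler at 3 WRKY genes, and at 14.4% of all genes tested. None was lower, with 0.519% lower among all genes, and 7 WRKY genes had an unadjusted p under 0.05. The share of WRKY genes called was thus not above the share of all genes called. The 35S::ULT1 lists held 9578 and 9945 peaks and the Ler lists 7753 and 7720, and the part of this in the gene-level results was not tested.

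WRKY41 (AT4G11070), a regulator of seed dormancy, had 53.2% in both 35S::ULT1 libraries and 0% in both Ler libraries, under a peak on chromosome 4 from 6759001 to 6760000 (TAIR10). The difference was 53.2 ± 7.89 points (limma SE, adjusted p = 0.00573). WRKY11 (AT4G31550), a negative regulator of basal resistance to bacteria, had 37.3% in both 35S::ULT1 libraries and 0% in both Ler libraries (difference 37.3 ± 6.55 points, limma adjusted p = 0.0102). Both genes also had 0% in ult1-2 and ult1-3, so they had cover in the 2 libraries the filter asks for only through 35S::ULT1. With all genes tested and no filter the adjusted p was 0.0219 at WRKY41 and 0.0377 at WRKY11.

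WRKY20 (AT4G26640) had 16.4% in both 35S::ULT1 libraries and 0% in both Ler libraries, and its limma adjusted p of 0.0490 was at the edge of the threshold. It no longer passed in 10 of the 13 other settings, where the adjusted p ran from 0.0207 to 0.858. These 3 genes lay under weak peaks. In 35S::ULT1 library 1 the authors' fold was 2.2597 at WRKY41, 1.83 at WRKY11 and 2.45 at WRKY20, at percentiles 28.3, 14.1 and 34.5 of that list.

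By the rule that a gained gene is marked in both libraries of one genotype and neither of the other, 2 of 27 WRKY genes unmarked in Ler were gained in 35S::ULT1, WRKY41 and WRKY74, where 5.83% of all such genes were. No WRKY gene of 39 was lost (0.89% of all genes). WRKY74 (AT5G28650) had 62.3% and 74.8% in 35S::ULT1 and 0% in both Ler libraries, but its limma adjusted p was 0.0884. One ult1-3 library also had 74.8% at WRKY74 and the other 0%.

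Of the WRKY genes with cover in 35S::ULT1 or Ler, 10 had a higher mean in 35S::ULT1, 2 a lower one and 34 the same. Of all 11189 genes with such cover, 5508 had a higher mean, 882 a lower one and 4799 the same. WRKY74, WRKY64, WRKY45, WRKY40, WRKY66, WRKY75 and WRKY70 had higher means in 35S::ULT1 that did not pass the test. WRKY64 (AT1G66560) had 37.6% in both 35S::ULT1 libraries and 0% in both Ler libraries. In ult1-3 it had 0% in library 1 and 37.6% in library 3. WRKY75 and WRKY70 had 100% in both 35S::ULT1 libraries. In Ler, WRKY75 had 100% and 95.7%, and WRKY70 had 98.8% in both libraries. WRKY45 (AT3G01970) had 100% in both 35S::ULT1 libraries and 68.4% in both Ler libraries (limma adjusted p = 0.328). Its peak was 6000 bp wide in 35S::ULT1 library 1 and covered at least 50% of 5 genes, and 1000 bp wide in Ler library 1. WRKY40 (AT1G80840) had 97.9% in both 35S::ULT1 libraries, against 72.2% and 61.9% in Ler (adjusted p = 0.0943). WRKY66 (AT1G80590) had 97.7% in both 35S::ULT1 libraries, against 59.96% and 41.1% in Ler (adjusted p = 0.184).

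Leaving out a 35S::ULT1 library left 1 library of that genotype, so limma's calls in that fit say little about any gene. WRKY41 and WRKY11 then had cover in only 1 list and were not tested, while WRKY20 had 16.4% in either library left.

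In the ULT1 mutants of the Ler background, mean cover of ult1-2 was the same as that of Ler at 32 of the 41 WRKY genes with any cover in either, where it was at 5334 of 9111 genes of all kinds. For ult1-3 it was the same at 31 of 44 WRKY genes and at 5374 of 9146 of all genes. Of the WRKY genes, 28 were at 100% in ult1-2, 29 in ult1-3 and 28 in Ler, and cover cannot show a change of signal in a gene that is at 100% in both. Limma called 0 WRKY genes in ult1-2, with 3 at an unadjusted p under 0.05, while it called 0.176% of all genes higher and 0.00926% lower. It called 0 in ult1-3, with 1 at an unadjusted p under 0.05, and 0.13% of all genes higher and 0.12% lower. Both mutants were set against the same Ler libraries.

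By the rule, ult1-2 lost 2 of the 39 WRKY genes marked in Ler, WRKY40 and WRKY45 (2.64% of all marked genes were lost), and gained 0 (0.422%). WRKY40 had 0% and 20.6% in ult1-2, against 72.2% and 61.9% in Ler (difference -56.7 ± 9.86 points, limma SE, adjusted p = 0.151). WRKY45 had 0% and 27.4% in ult1-2, against 68.4% in both Ler libraries (difference -54.8 ± 15.2 points, adjusted p = 0.464). The rule that chose both genes also sets their values apart.

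In ult1-3, 1 of the 39 was lost, WRKY45 (2.1% of all marked genes were), and 0 were gained (0.363%). WRKY45 had 0% and 41.1% in ult1-3, against 68.4% in both Ler libraries (difference -47.9 ± 15.2 points, limma adjusted p = 0.6996). WRKY40 in ult1-3 had 61.9% and 72.2%, the same 2 values as in Ler in the other order. With the gene body extended by 500 bp on each side, WRKY40 and WRKY45 were lower in ult1-2 by limma, with adjusted p of 0.00593 and 0.0388. Over all settings in ult1-2 the adjusted p ranged from 0.00593 to 0.798 for WRKY40 and from 0.0388 to 1 for WRKY45. With a cover minimum of 20% or 80%, or with equal numbers of peaks in every list, the rule found no WRKY gene lost in ult1-2 or in ult1-3.

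The peaks behind these calls were small ones. The Ler peak over WRKY40, on chromosome 1 from 30383801 to 30385200 in library 1, had an authors' fold of 1.99 and stood at percentile 20.4 of its list. The Ler peak over WRKY45, on chromosome 3 from 326401 to 327400, had folds of 1.92 and 1.67 in libraries 1 and 3, at percentiles 18.1 and 6.81.

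In ref6-3 against Col-0, limma tested 46 WRKY genes and found H3K27me3 higher at 5 (18.3% of all genes tested) and lower at 1 (2.52%). Neither share of WRKY genes exceeded that of all genes. In Col-0, mean cover was already 100% at 28 of the 67 WRKY genes and at 3827 of all 27444 genes, where no gain can show. The 5 higher genes were WRKY67, WRKY64, WRKY74, WRKY25 and WRKY66, and the 1 lower gene was WRKY40. By the rule, 4 of the 27 WRKY genes unmarked in Col-0 were gained (6.75% of all such genes), the first 4 of these, and 1 of 37 was lost (3.38%), WRKY40. Leaving out a ref6-3 library left 1 library of that genotype, so limma's calls in that fit say little about any gene. WRKY67, WRKY64 and WRKY25 then had cover in 1 list only and were not tested. In either ref6-3 library left, WRKY74 and WRKY66 had 100% and WRKY40 had 0%.

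WRKY67 (AT1G66550) and WRKY64 (AT1G66560) are neighbours, 3857 bp apart with no protein-coding gene between them. WRKY67 had 100% in both ref6-3 libraries and 0% in both Col-0 libraries, under peaks on chromosome 1 from 24828401 to 24830600 in library 1 and to 24831000 in library 2. WRKY64 had 99.9% and 100% in ref6-3 and 0% in both Col-0 libraries, under separate peaks that began at 24833401. Limma gave an adjusted p of 2.19e-07 for each, with differences of 100 ± 14.2 points at WRKY67 and 99.96 ± 14.1 points at WRKY64. WRKY67, WRKY64 and WRKY25 had cover only in the 2 ref6-3 libraries of this fit and passed its filter through them alone. With all genes tested and no filter the adjusted p was 2.03e-05 at WRKY67 and WRKY64 and 0.000997 at WRKY25. WRKY63 (ABO3), WRKY64, WRKY66 and WRKY67 are close relatives, and the sources used here do not say how reads that align to more than 1 of them were treated.

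At WRKY74 a peak beside the gene reached over it in ref6-3. Its cover was 100% in both ref6-3 libraries, against 0.125% and 0% in Col-0 (difference 99.9 ± 14.1 points, limma adjusted p = 2.19e-07). Apart from that 0.125% in 1 Col-0 library, its cover for the filter also came from ref6-3 alone. The peak on chromosome 5 ran from 10675001 to 10679400 in ref6-3 library 1 and from 10674801 to 10677600 in Col-0 library 1, where it ended at the edge of the gene. WRKY66 had 100% in both ref6-3 libraries, against 59.96% and 0% in Col-0 (difference 70.02 ± 17.6 points, adjusted p = 0.00714). It lost its call in 6 of 10 other settings, among them without Col-0 library 2 (adjusted p = 0.194).

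WRKY25 (AT2G30250), which acts in heat tolerance with WRKY26 and WRKY33, had 56.3% and 84.1% in ref6-3 and 0% in both Col-0 libraries. The difference was 70.2 ± 12.4 points (limma adjusted p = 8.21e-06). The 2 ref6-3 libraries differed in the peak: 1200 bp wide at percentile 0.334 of the list in library 1, and 5600 bp wide at percentile 77.1 in library 2. Without a floor on the spread of single genes, its adjusted p was 0.140.

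WRKY40 was the gene that moved the other way. It had 0% in both ref6-3 libraries, against 72.2% and 82.5% in Col-0 (difference -77.4 ± 12.8 points, limma adjusted p = 2.40e-06). Its Col-0 peaks had authors' folds of 2.04 and 1.74, at percentiles 25.7 and 5.89. The adjusted p was 0.103 without ref6-3 library 1 and 0.0764 without library 2, and the gene was not lost by the rule with equal numbers of peaks in every list.

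**Figure D4:**
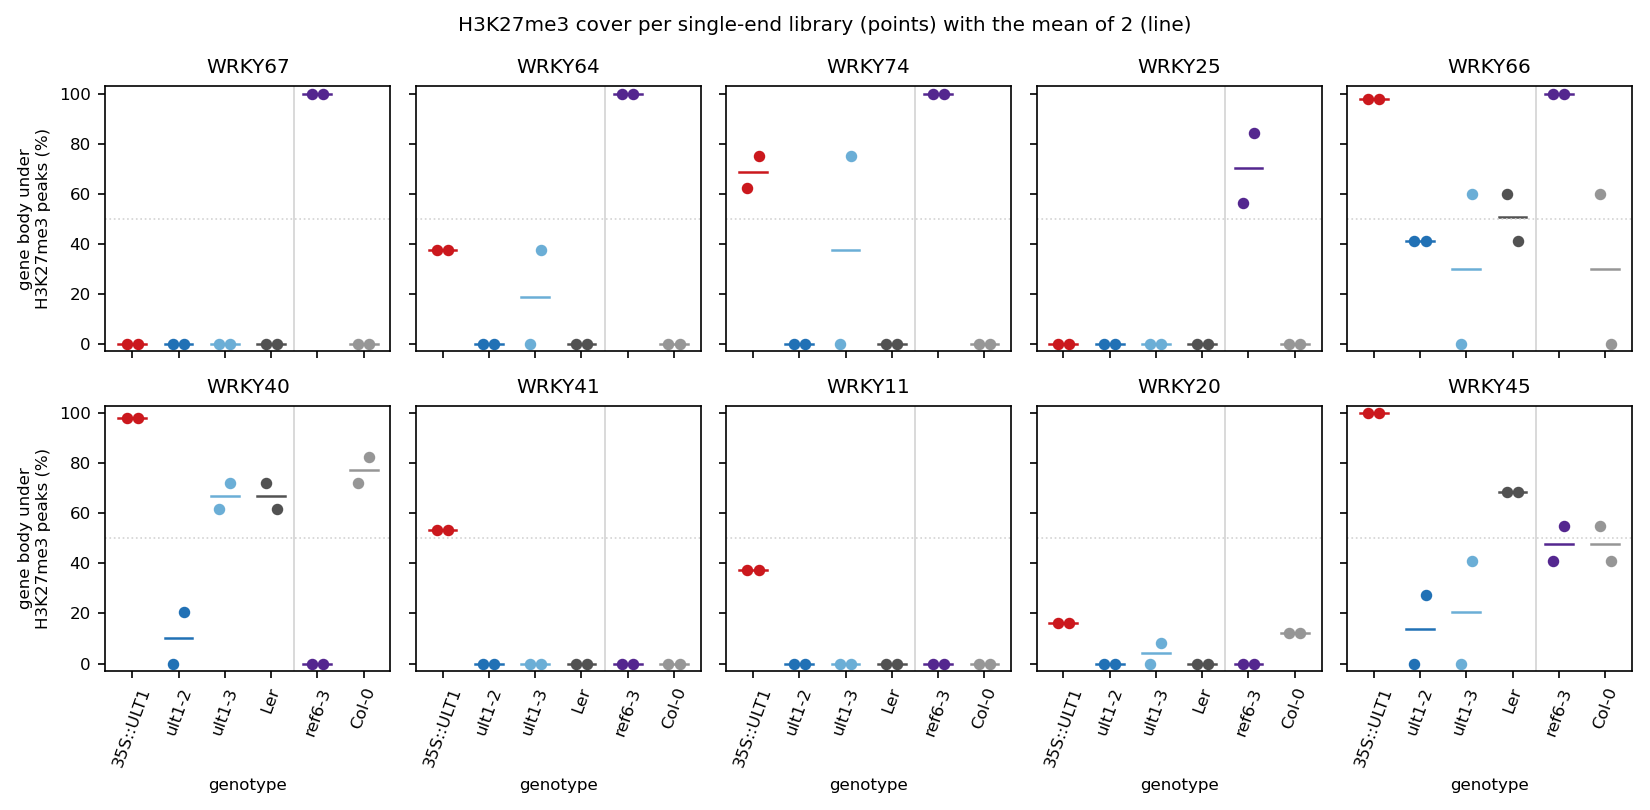
H3K27me3 cover (percent of gene body, y) of the 10 WRKY genes called by limma or lost or gained by the rule in a single-end comparison, with 1 point per library, a line at the mean of 2, and a dotted line at 50%. WRKY67, WRKY64 and WRKY74 stand at 100% or within 0.1 points of it in ref6-3 and near 0% in Col-0, and WRKY40 stands at 97.9% in 35S::ULT1 and at 0% in ref6-3.

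With the filter and floor used throughout, no WRKY gene passed limma's test for K4 trimethylation in any genotype. Without the floor on the spread of single genes 2 passed in ref6-3, without 1 library 0 to 1 passed in ref6-3, and with the replicate block 1 passed in 35S::ULT1. In 35S::ULT1, limma called 0 of 39 WRKY genes higher (0.0162% of all genes) and 0 lower (0%), with 1 at an unadjusted p under 0.05. In ult1-2 it called 0 higher (0%) and 0 lower (0%), and in ult1-3 0 higher (0.0216%) and 0 lower (0%), with 0 WRKY genes under an unadjusted 0.05 in both. In ref6-3 it called 0 of 41 higher (0.801%) and 0 lower (0.477%), with 1 under an unadjusted 0.05.

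By the rule, the 1 WRKY gene whose K4 mark differed was WRKY75 (AT5G13080), a promoter of phosphate uptake and leaf senescence, gained in 35S::ULT1 (0.73% of all genes unmarked in Ler). It had 40.98% and 54.6% in 35S::ULT1, against 0% and 27.3% in Ler (difference 34.2 ± 16.9 points, limma adjusted p = 1). With the K4 number of the list names as a replicate block, the limma SE was 5.56 points and the adjusted p 6.43e-07. That SE was shrunk toward the spread of other genes. At WRKY75 itself, cover from list 1 to list 3 was unchanged in ult1-2 and rose from 0% to 40.98% in ult1-3. By the rule, 0 WRKY genes lost K4 (0.12%) in 35S::ULT1. In ult1-2 0 were lost (0.229%) and 0 gained (0.355%), in ult1-3 0 lost (0.457%) and 0 gained (0.599%), and in ref6-3 0 lost (0.37%) and 0 gained (1.17%). The gain at WRKY75 was absent with peaks limited to a q-value of 1e-10. In ult1-2 WRKY75 had 27.3% in both libraries and in ult1-3 0% and 40.98%.

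The other unadjusted differences were at WRKY48, with 74.1% and 51.9% K4 cover in 35S::ULT1 and 37.1% in both Ler libraries, and at WRKY9, with 32.6% in both ref6-3 libraries and 0% and 32.6% in Col-0. Their limma adjusted p were 1 and 0.411. Library number moved with K4 cover at some genes: WRKY36, WRKY35, WRKY29 and WRKY72 had 0% in all 4 Ler-family lists numbered 1. In the 4 lists numbered 3, WRKY36 had 43.3% in each and WRKY29 had 23.04% to 57.6%.

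At the genes whose H3K27me3 differed in ref6-3, no K4 difference passed the test. WRKY40 had 51.6% and 82.5% K4 cover in ref6-3 and 61.9% and 92.8% in Col-0 (limma adjusted p = 1). WRKY25 had 62.8% and 72.2% in ref6-3 and 72.2% in both Col-0 libraries (adjusted p = 1). WRKY64, WRKY66, WRKY67 and WRKY74 had 0% K4 cover in all 12 lists.

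In the paired-end series, which gives 1 list per genotype and so no replicate check and no test, a gene was counted as lost or gained where it crossed 50% cover and moved by at least 25 points. H3K27me3 marked 35 WRKY genes in ult1-3 swn-7 (52.2%, against 20.4% of all protein-coding genes), and 28 were marked in ult1-3 clf-28 (41.8%, against 11.1%). It marked 33 in the single mutant clf-28 (49.3%, against 18.7%), 37 in swn-7 (55.2%, against 21.4%), 33 in ult1-3 (49.3%, against 20.2%) and 36 in Col-0 (53.7%, against 20.7%). The double mutant ult1-3 clf-28 had peaks over 9.55 Mb of the genome and Col-0 over 18.9 Mb. Against Col-0 it lost 8 of 36 WRKY genes, where 50.1% of all marked genes were lost, and it gained 0 (1.09%). Over genes with cover in either list the median difference was -8.85 points at WRKY genes and -20.4 points at all genes. In clf-28 against Col-0 the order was reversed, with -9.48 points at WRKY genes and 0 at all genes. In ult1-3, swn-7 and ult1-3 swn-7 against Col-0, the median was 0 for WRKY genes and for all genes.

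The 8 lost in ult1-3 clf-28 were WRKY9, WRKY38, WRKY40, WRKY49, WRKY55, WRKY61, WRKY66 and WRKY70. WRKY70 had 0% in ult1-3 clf-28, against 88.3% in Col-0, and 77.9% in each of the other mutants. WRKY61 had 0% in ult1-3 clf-28, 53.8% in clf-28, 92.4% in ult1-3 and 92.4% in Col-0. WRKY9 had 0%, 78.8%, 100% and 89.6% in the same 4 lists, and WRKY49 had 0% in ult1-3 clf-28 and 86.4% in the other 3. These 4 genes were thus unmarked in the double mutant alone among the 6 lists.

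In clf-28, 5 WRKY genes were lost (28.3% of all marked genes), WRKY38, WRKY40, WRKY43, WRKY55 and WRKY66, and 2 were gained (4.79%), WRKY17 and WRKY27. WRKY38 had 0% in both lists that carry clf-28, and 100% in swn-7, ult1-3 swn-7, ult1-3 and Col-0. WRKY55 had 21.6% in clf-28 and in ult1-3 clf-28 and 100% in Col-0, while its neighbour WRKY54 had 66.4% in clf-28 and 100% in ult1-3 clf-28 and Col-0. WRKY17, a relative of WRKY11 with the same role in basal resistance, had 66.1% in clf-28 and 0% in the other 5 lists. WRKY27, which promotes symptoms of bacterial wilt, had 68.3% in clf-28, 58.7% in swn-7 and 0% in the others.

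In ult1-3, 3 WRKY genes were lost (12.8% of all marked genes), WRKY40, WRKY43 and WRKY66, and 0 gained (2.73%). In swn-7, WRKY66 was lost (7.41%) and WRKY27 and WRKY30 were gained (2.65%). In ult1-3 swn-7, WRKY40 and WRKY66 were lost (10.5%) and WRKY30 was gained (2.4%). WRKY66 thus had 0% in all 5 mutants and 100% in Col-0. WRKY40 had 0% in ult1-3 clf-28, ult1-3 swn-7, clf-28 and ult1-3, 51.6% in swn-7 and 64.0% in Col-0.

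Each double mutant was also set against its single PRC2 mutant. Against clf-28, ult1-3 clf-28 lost 6 of 33 marked WRKY genes (44.1% of all marked genes), WRKY9, WRKY17, WRKY27, WRKY49, WRKY61 and WRKY70, and gained WRKY43 (0.923%). Against swn-7, ult1-3 swn-7 lost 2 of 37 (8.14%), WRKY27 and WRKY40, and gained 0 (1.18%). WRKY43 had 54.5% in ult1-3 clf-28 and 0% in clf-28.

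The Col-0 wild types of both series differed at several of these genes. WRKY30 had 0% in paired-end Col-0 and 100% in both single-end Col-0 libraries, and so did WRKY42. WRKY66 had 100% in paired-end Col-0 and 59.96% and 0% in single-end Col-0. WRKY27 had 0% in paired-end Col-0 and 70.1% and 35.9% in single-end Col-0. In the single-end series ult1-3 was in the Ler background, where WRKY40 kept 61.9% and 72.2%. The background and the series cannot be told apart in that contrast.

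**Figure D5:**
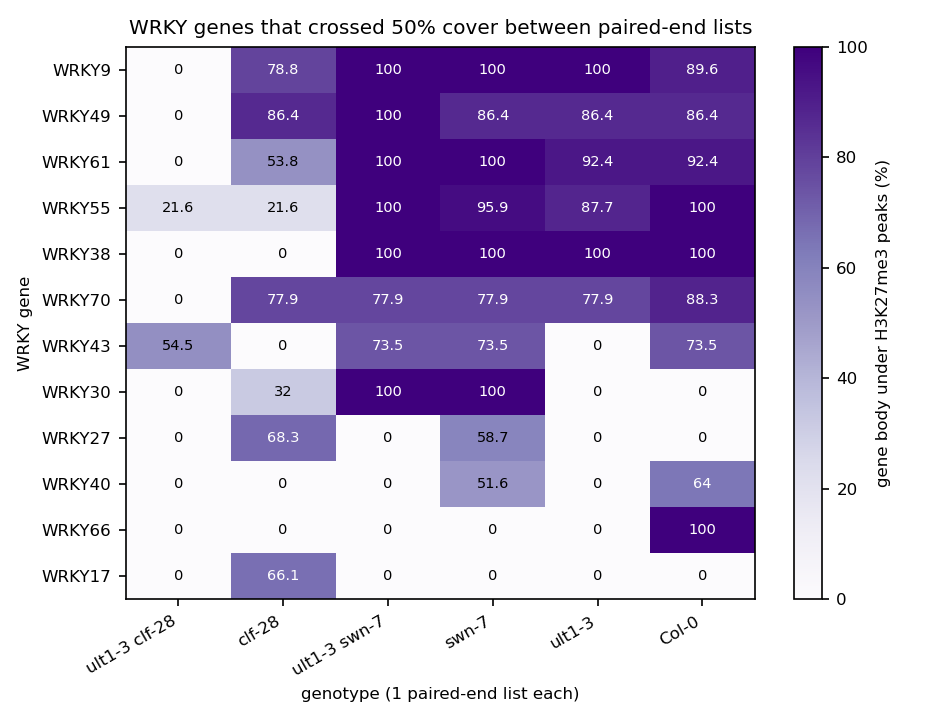
H3K27me3 cover (percent of gene body, color and printed value) in the 6 paired-end lists for the 12 WRKY genes lost or gained in any paired-end comparison. WRKY9, WRKY49, WRKY61 and WRKY70 stand at 0% in ult1-3 clf-28 and above 50% in the other lists, and WRKY66 is covered in Col-0 alone.

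The genes around the WRKY factors in defence signalling were followed as a list of 27, from receptors and MAP kinases through WRKY partners and salicylic acid genes to outputs. In Ler 9 were marked by H3K27me3 (33.3%, against 25.4% of all genes) and in Col-0 7 (25.9%, against 22.97%). In each of the 12 single-end lists 7 were marked (25.9%, against 19.4%), while 17 carried the K4 mark in all 12 K4 lists, as did 15766 of all 27444 genes. By limma, 1 of 12 tested was higher in 35S::ULT1 (14.4% of all genes) and 0 lower (0.519%), 1 of 12 was higher in ref6-3 (18.3%) and 0 lower (2.52%), and 0 passed in ult1-2 or ult1-3. Without the replicate block, none of the 20 tested for K4 trimethylation passed in any genotype. Results with the block are not given here for this list. PR5 had 73.9% and 59.1% K4 cover in Ler and 0% in both ult1-3 libraries, a loss by the rule. The difference was -66.5 points (limma adjusted p = 0.126). In ult1-2 PR5 had 73.9% and 44.3%.

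The gene higher in 35S::ULT1 was EFR, the receptor of bacterial elongation factor Tu. It had 59.2% and 54.6% in 35S::ULT1 and 0% in both Ler libraries (limma adjusted p = 0.00240). Its K4 cover was 54.6% and 27.3% in 35S::ULT1 and 0% and 4.55% in Ler (limma adjusted p = 1). The gene higher in ref6-3 was FRK1, a receptor kinase gene induced by flagellin that WRKY22 and WRKY29 act on. It had 60.2% and 65.3% in ref6-3 and 0% in both Col-0 libraries (limma adjusted p = 1.44e-05). EFR and FRK1 each passed the filter of their fit only through the libraries where they were covered. SIB2, whose protein binds WRKY33, had 0% in all 4 ult1-2 and ult1-3 libraries and 65.2% and 43.5% in Ler, with adjusted p of 0.364 in ult1-2 and 0.353 in ult1-3.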

How the data were processed

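The authors deposited 24 single-end peak lists, 1 per library, and 6 paired-end lists, 1 per genotype. The sources used here do not give how libraries were combined in the paired-end lists. The submitters' processing notes name build TAIR10 and, for the single-end and paired-end series together, CASAVA 1.8.2, BWA 0.6.2-r126 and 0.7.17-r1188, SAMtools 0.1.19 and 1.16.1, Picard 1.93 and 2.26.10, bedtools 2.17.0-97 and 2.30.0, and SICER 1.1, with no role or parameters. The single-end files have no header. Their deposited values per peak were read as raw read counts of the ChIP library, a fold (ratio) over control and a q-value (adjusted p-value), judged by the values and by the order in which SICER writes its columns. The largest deposited q-value was 9.99e-05. Each paired-end peak has 1 deposited whole number, a score of the authors in an unstated unit that served only to rank the peaks of a list. Another 50 columns were not used, the control reads and unadjusted p of the single-end lists and the fold of 2 K4 lists. Lists were matched to samples by name; 2 K4 lists, of Ler and ult1-2, carry another library number than the labels and were given to their genotype only, and K4 library numbers are those of the list names.

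Peaks lie on windows of 200 bp. Cover of each gene body was computed in Python 3.11.15 with numpy 2.4.6 and pandas 2.3.3, with gene positions and symbols from a RefSeq table of assembly TAIR10.1. A shift of 0 bp aligned K4 peaks with genes best on every chromosome; since the builds differ in name, only peak coordinates are given. Cover was tested with limma 3.58.1 (R 4.3.3; trend and robust shrinkage) on genes with cover in at least 2 libraries. The spread of each gene was floored at that of libraries differing by one 200 bp window, and p-values were adjusted by Benjamini-Hochberg with a threshold of 0.05. The fit was tested on simulated data. The 8 Ler-family libraries shared 1 fit, and the 4 ref6-3 and Col-0 libraries another.

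K4 lists of the Ler family with the same number deviated together from their genotype means, with correlations of 0.425 to 0.526 for every pair of genotypes. The labels name no batch shared by a number, and the main fit did not use it. Each of these K4 lists numbered 3 held more peaks than the list numbered 1 of its genotype, in Ler 16381 against 15785. Why the lists deviated together was not tested. The genes named are those called or lost or gained in any comparison, plus fixed role lists. The WRKY genes, role lists, signalling list and comparison families were chosen with earlier results of these data known. Alternatives were the cover minimum, a stricter q-value, equal numbers of peaks, an extended gene body, no spread floor, other filters, the replicate block and leaving out each library. Sequences were not used here, so a planned description of protein classes and promoter motifs was not run.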

Additional observations from a re-analysis of the deposited data

How the results depend on the processing

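Of 418 recomputed counts, 60 moved and 0 reversed. Having 2 libraries per genotype limits every single-end call, and left alone in its genotype a library is assumed to vary like the others; the cause of each move was not tested. At a cover minimum of 20%, WRKY genes lost in ult1-2 and in ult1-3 were 0, gained in 35S::ULT1 4, and gained for K4 in 35S::ULT1 0. At 80%, lost in ult1-2, ult1-3 and ref6-3 were 0 and gained in ult1-2 1, and in the paired-end series clf-28 had 21 marked and 0 gained, ult1-3 1 lost and 1 gained, ult1-3 clf-28 against clf-28 2 lost and 2 gained, ult1-3 swn-7 against Col-0 1 lost and 2 gained, and against swn-7 0 lost. With equal numbers of peaks, lost in ult1-2, ult1-3 and ref6-3 were 0 and gained in 35S::ULT1 1, and paired-end losses were 9 in clf-28, 1 in ult1-3 clf-28 against clf-28 and 1 in ult1-3 swn-7 against swn-7, with gains of 1 in swn-7, 0 in clf-28 and 3 in ult1-3 clf-28 against clf-28. With 500 bp added to each side, limma called 5 of 46 WRKY genes higher in 35S::ULT1 and 0 lower. Of all 14037 genes tested, 2384 were higher and 175 lower. In ult1-2 it called 1 WRKY gene higher and 2 lower, with 86 and 161 among all genes. The rule then gave 1 lost in ult1-2, 0 lost in ref6-3 and 1 gained in 35S::ULT1. In the paired-end series ult1-3 clf-28 against clf-28 had 3 lost and 2 gained, ult1-3 swn-7 1 lost against Col-0 and 1 against swn-7, and clf-28 0 gained. Without the floor, limma called 5 in 35S::ULT1, 3 in ult1-2, 3 in ult1-3 and, for K4, 2 in ref6-3. With a mean cover of at least 10%, it called 1 in 35S::ULT1. Under a q-value of 1e-10, 0 were gained for K4 in 35S::ULT1. With the replicate block, limma called 1 for K4 in 35S::ULT1 (WRKY75), where it called 91 of all 18523 genes higher and 30 lower. For H3K27me3 WRKY20 in 35S::ULT1 then lost its call (limma adjusted p = 0.0928). The block changed no other call of a WRKY gene. For H3K27me3 the correlation was 0.353 between ult1-2 and ult1-3 and -0.0439 to 0.103 for the other pairs of genotypes, so the numbers do not pair libraries throughout. For ref6-3 and Col-0 K4 the correlation was 0.327 over 2 numbers. Leaving out 1 library in turn gave 0 to 5 limma calls in 35S::ULT1, 1 to 5 in ref6-3 and, for K4, 0 to 1 in ref6-3. It gave 0 to 1 gained in ult1-3, and for K4 1 to 3 gained in 35S::ULT1, 0 to 1 in ref6-3, 0 to 1 in ult1-2 and 0 to 3 in ult1-3, with 0 to 1 lost in ult1-2 and in ult1-3.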

Other observations

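The median rank of K4 trimethylation peaks over WRKY genes was lower than that of H3K27me3 peaks over marked WRKY genes. The median rank of K4 peaks over WRKY genes by the authors' fold lay between percentiles 25.6 and 47.2 of 10 K4 lists whose fold was used, where that of H3K27me3 peaks lay between percentiles 58.2 and 85.3 of the 12 single-end lists. The lowest of these H3K27me3 values was in ref6-3 library 1 and the highest in ult1-2 library 3. The K4 medians took every WRKY gene with a peak, and the H3K27me3 medians took only WRKY genes marked in the list. Weak H3K27me3 peaks over unmarked WRKY genes were thus left out, while weak K4 peaks were kept. The part of this choice in the difference was not tested.

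WRKY59 had 100% H3K27me3 cover in both ult1-2 libraries, against 67.1% in both Ler libraries (difference 32.9 ± 7.80 points, limma adjusted p = 0.308), and 100% in ref6-3 and Col-0. WRKY49 had 86.4% in both ult1-2 libraries and 100% in both Ler libraries (limma adjusted p = 1), and WRKY59 and WRKY49 were named after their values were seen.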
